A study of Homo sapiens with 4 samples.

Results

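The replication-independent histone variants examined here were the 10 genes *H2AFZ*, *H2AFV*, *H2AFX*, *H2AFY*, *H2AFY2*, *H2AFJ*, *H3F3A*, *H3F3B*, *H1F0* and *H1FX*. They were chosen by name, from the older symbols that the tables use, and all 10 were found among 20457 listed gene symbols. RNA had been sequenced from HEK293, an established human embryonic kidney cell line, in 4 poly(A)-selected libraries. In 2 libraries the cells had received a negative control siRNA (siControl, labelled WT), and in 2 an siRNA against *CNOT4* (siCNOT4, labelled as the knockdown), each at 10 nM for 72 h. CNOT4 is a ubiquitin ligase that binds the CCR4-NOT complex, which removes poly(A) tails from mRNA, and the question was whether it takes part in how codon choice affects mRNA levels. Values are TPM, a transcript abundance corrected for gene length and scaled to the same total in every library, so that levels can be compared between genes. The labels do not say that replicates were separate cultures, so p-values measure the spread between these libraries, which may be technical.

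DNA is wrapped around octamers of the core histones H2A, H2B, H3 and H4, and linker histone H1 binds where the DNA enters and leaves. Most histone protein is made in S phase from clustered genes whose mRNAs end in a stem-loop and lack a poly(A) tail. The variant genes lie outside those clusters, are expressed through the cell cycle, mostly make polyadenylated mRNA, and let histones be replaced at any time. H2A.Z marks promoters, H2A.X carries the phosphorylation that marks DNA breaks, macroH2A has an added macro domain, H3.3 is deposited at active genes and at repeats, and H1.0 is the linker histone that accumulates in slowly dividing and differentiated cells.

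The 3′ ends of the transcripts are shown first, because a library selected for poly(A) reads only tailed mRNA and because 1 of the 10 genes departs from the usual layout. In GENCODE 29, an annotation of the build GRCh38, the histone stem-loop was searched on the sense strand of annotated protein-coding transcripts. It was found in 1 of the 10 genes, *H2AFX*, against 47 of 19702 protein-coding genes (0.239%) and 24 of 59 matched replication-dependent histone genes (40.7%). Transcripts annotated without that 3′ sequence, or with a stem-loop outside the searched pattern, could not match, and neither kind was counted. In *H2AFX* the stem-loop began 49 bases after the stop codon (chr11:119094891-119094920, minus strand), inside a 3′ untranslated region of 1109 bases with a poly(A) signal near its end (chr11:119093881-119093910, minus strand). The first of the following lines is that stem-loop, the second is the stem-loop of *HIST3H2A* (chr1:228457362-228457391, minus strand), the most abundant replication-dependent histone gene with a match, and capitals mark the stem-loop.
H2AFX stem-loop: ccacaaaGGCCCTTTTAAGGGCCaccaccg
HIST3H2A stem-loop: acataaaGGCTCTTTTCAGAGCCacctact
Poly(A) signals, AATAAA or ATTAAA starting 50 to 16 bases before the transcript end, were found on the sense strand in 8 of 10 main transcripts of the variants and in 71.4% of those of all protein-coding genes. The following lines show those of *H2AFX*, *H1F0* (chr22:37807399-37807428, plus strand) and *H2AFZ* (chr4:99948090-99948119, minus strand), the 3 genes the results turn on, with the signal in capitals.
H2AFX poly(A) signal: tggactaattttATTAAAggattgtttttt
H1F0 poly(A) signal: ttaaaactttaaAATAAAttggaaaaggga
H2AFZ poly(A) signal: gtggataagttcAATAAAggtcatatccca
*H2AFX* held both kinds of 3′ element, whereas *H1F0* and *H2AFZ* held the poly(A) signal and no match to the stem-loop in these transcripts.

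The targeted mRNA was lower in both knockdown libraries. *CNOT4* had a TPM of 6.43 and 4.73 in siControl and 3.38 and 3.81 in siCNOT4, a ratio of group means of 0.644. The change on the log2 scale was -0.51 (SE 0.26, limma adjusted p = 0.184) and was not called. It was called after TMM scaling (-0.997, limma adjusted p = 0.0329), quantile normalization (-1.15, 0.0252) and trend removal (-0.92, 0.0141), and without siControl replicate 2 (-0.70, 0.00975). The median log2 fold change of all 14208 tested features was 0.50, and values relative to that median are given for *H2AFX*, *H1F0* and *H2AFZ*. Fold changes of other genes, called list genes included, are not relative to it. The siControl replicates differed from each other by a median of 0.38 on the log2 scale, against -0.03 for the siCNOT4 replicates (replicate 1 minus replicate 2). Depth, estimated from the steps of the lowest values, was 30.5 to 32.6 in units of 1e6 reads. HEK293 markers *VIM*, *KRT8*, *KRT18* and *NEFL* were at 193 TPM or more in every library, while *PAX2* and *LHX1* were at 5.04 TPM or less and *NEFM* was under 1. *VIM*, an intermediate filament gene, fell by 1.09 (limma adjusted p = 0.0288). Of 8 listed markers of other cell types, 7 were among the gene symbols and *INS* was not. *EPCAM*, an epithelial adhesion gene, was at 238 to 262 TPM and the other 6 were under 1 TPM in every library.

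**Figure D1:**
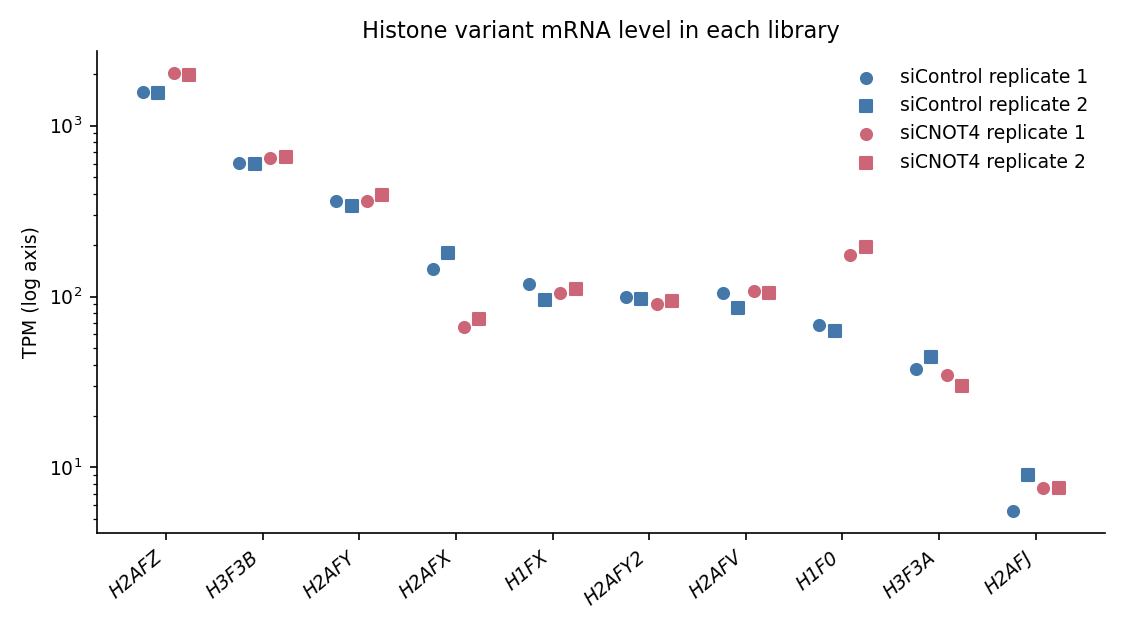
TPM (log axis) of the 10 variant genes in each library, with circles for replicate 1, squares for replicate 2, blue for siControl and red for siCNOT4. *H2AFX* is lower and *H1F0* higher in both siCNOT4 libraries, and the levels run from 5.53 TPM (*H2AFJ*) to 2042 TPM (*H2AFZ*).

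Among the 10 genes, 2 passed the test. *H2AFX*, encoding H2A.X, fell to 0.434 of its siControl level, and *H1F0*, encoding H1.0, rose 2.83-fold. The other 8 genes had log2 fold changes between -0.34 and 0.35 and were not called at a limma adjusted p under 0.05. With 2 called genes in 10, the background was 12.6% of all tested features called, 11.3% higher and 1.3% lower in siCNOT4. All 10 genes passed the filter of a mean TPM of at least 1, with means from 7.43 to 1790 TPM. The median log2 fold change of the 10 was 0.10 beside 0.50 for all features, and 9 of the 10 lay below that median, all but *H1F0*.

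**Figure D2:**
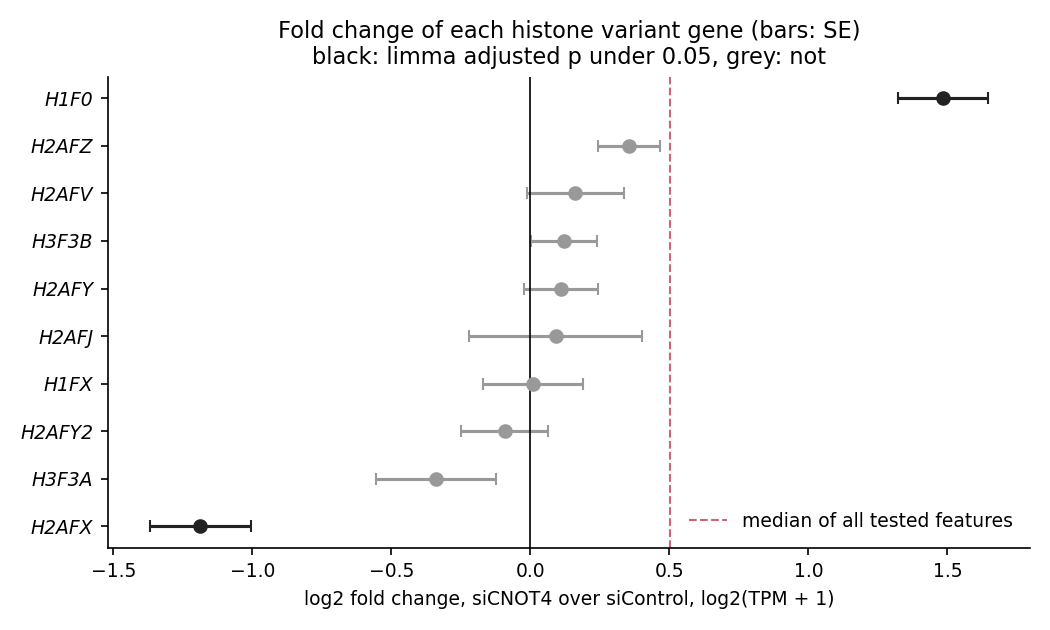
Log2 fold change of siCNOT4 over siControl for each variant gene on the log2(TPM + 1) scale, bars giving the SE and the dashed line the median of all tested features (0.50). *H1F0* (1.48) and *H2AFX* (-1.19), in black, passed the limma threshold, and the 8 grey genes did not.

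The DNA damage variant gene *H2AFX* (chromosome 11, 119093854 to 119095467, GRCh38) has a single exon in its main transcript of 1614 bases. The control libraries had 144 and 179 TPM, and the knockdown libraries 66.4 and 73.8. Both siCNOT4 values lay under both siControl values, and the gap between the groups was wider than the gap within either. The means were 162 ± 24.9 and 70.1 ± 5.22 (SD, n = 2 each), and the change was -1.19 on the log2 scale (SE 0.18, limma adjusted p = 0.0255). Relative to the median of all features it fell by 1.69, and 51 of 14208 features had a lower log2 fold change. At the estimated depth these values correspond to about 3012, 4256, 1323 and 1452 reads, if the authors' gene length resembled that of GENCODE. The call was lost without siCNOT4 replicate 1 (-1.11, limma adjusted p = 0.0988). In bulk RNA, a lower level in each cell and fewer cells that express a gene cannot be told apart. The libraries read tailed mRNA alone, so any *H2AFX* mRNA ending at the stem-loop without a tail was not measured. Whether the use of these ends shifted was not tested.

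*H2AFX* could also be set against its relatives within each library, where a factor common to the whole library plays no part. Quantile normalization and removal of length and GC trends shift genes by differing amounts, so they could change such measures. Per 100 units of *H2AFZ* TPM there were 9.10 and 11.5 of *H2AFX* in siControl and 3.25 and 3.73 in siCNOT4. Of the summed TPM of the 6 H2A variant genes, *H2AFX* took 6.26% and 7.90% in siControl and 2.48% and 2.79% in siCNOT4. The 2 groups did not overlap in either measure. *H2AFX* ranked 4th of the 10 variants by mean TPM in siControl and 8th in siCNOT4.

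The linker histone gene *H1F0* (chromosome 22, 37805093 to 37807436, GRCh38), also a single exon, had a TPM of 68.2 and 62.7 in siControl and 175 and 195 in siCNOT4. Both siCNOT4 libraries were far above both siControl libraries. The means were 65.4 ± 3.88 and 185 ± 13.8 (SD, n = 2 each), a change of 1.48 on the log2 scale (SE 0.16, limma adjusted p = 0.0227). Relative to the median of all features it rose by 0.98, and 504 features had a higher log2 fold change. It rose in rank from 8th of the 10 variants to 4th. Across all alternatives its log2 fold change stayed between 0.89 and 1.56, and it was called in each.

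*H1FX* (chromosome 3, 129314771 to 129316277, GRCh38) encodes the linker histone H1.10. It had 119 and 95.4 TPM in siControl, against 104 and 110 in siCNOT4, so the siCNOT4 values lay between the siControl values. The log2 fold change was 0.01 (SE 0.18, limma adjusted p = 0.969). An antisense gene, *H1FX-AS1*, overlaps its exons, and it stood at 2.71 and 4.31 TPM in siControl and 1.55 and 1.57 in siCNOT4. Whether the counting used strand is not given in the sources used here, so reads of this pair cannot be told apart. The same limit holds for *H2AFZ*, *H2AFY*, *H2AFY2*, *H3F3A* and *H3F3B*, each of which overlaps a gene on the opposite strand in GENCODE 29, among them *AIFM2* at *H2AFY2* and *UNK* at *H3F3B*.

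*H1FX* took 63.6% and 60.3% of the summed TPM of the linker pair in siControl and 37.3% and 36.2% in siCNOT4. *H1F0* was the lesser of the pair in both siControl libraries and the greater in both siCNOT4 libraries. The difference in the share of *H1FX* was -25.2 percentage points, where the SDs within the groups were 2.30 and 0.796 (n = 2 each). The two-sided exact permutation p was 0.333, which is the smallest that 2 libraries against 2 allow, and 0.333 after adjustment over 4 pairs. With length and GC trends removed, the difference was -18.0.

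**Figure D3:**
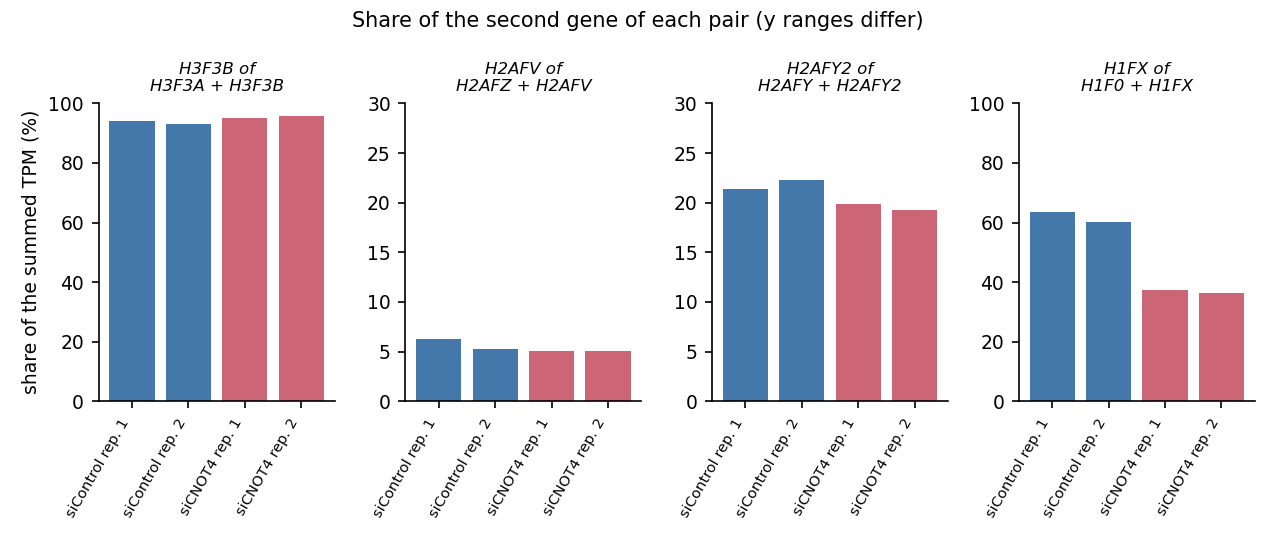
Share (%) of the summed TPM of a pair that its second gene takes in each library, blue for siControl and red for siCNOT4, with y axes from 0 that differ in range. The share of *H1FX* in the linker pair is 60.3% or more in siControl and 37.3% or less in siCNOT4, while the other 3 shares differ between group means by -2.31 to 1.70 percentage points.

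*H2AFZ* (chromosome 4, 99948086 to 99950388, GRCh38) encodes H2A.Z.1 and was the most abundant of the variants in every library. It reached 1583 and 1559 TPM in siControl, against 2042 and 1976 in siCNOT4. The groups did not overlap, and the difference of the means, 1571 ± 17.1 against 2009 ± 46.9 (SD, n = 2 each), was larger than the spread of the replicates. The log2 fold change of 0.35 (SE 0.11) had an unadjusted p of 0.0191 and a limma adjusted p of 0.0743, and was not called. It lay 0.15 below the median of all features. Its direction depended on the scaling: the value was -0.25 after TMM scaling and 0.66 after quantile normalization, where it was called (limma adjusted p = 0.0274).

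*H2AFV* (chromosome 7, 44826791 to 44848083, GRCh38) encodes H2A.Z.2, a near copy of H2A.Z.1. It had a TPM of 105 and 85.8 in siControl and 108 and 105 in siCNOT4. The second siCNOT4 value lay just under the first siControl value, so the groups overlapped (log2 fold change 0.16, SE 0.18, limma adjusted p = 0.487). *H2AFV* took 6.24% and 5.21% of the summed H2A.Z TPM in siControl and 5.02% and 5.06% in siCNOT4. The difference of -0.693 percentage points was smaller than the SD of 0.728 in siControl (exact permutation p = 0.333). This difference depended on the control library used, being -0.178 against replicate 2 alone and -1.21 against replicate 1 alone (that is, without siControl replicate 1 or 2).

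The pair of H2A.Z genes encodes nearly the same protein with different codons, which bears on the codon question. Their coding sequences of 128 codons differed at 66 codons and 75 bases, of which 64 were in the last position of a codon. The fraction of codons with G or C in that position (GC3) was close, at 48.4% for *H2AFZ* and 50.8% for *H2AFV*. The first 10 codons show the pattern, with capitals at the bases that differ.
H2AFZ: atggctggCggTaaGgctggaaaggacTCC
H2AFV: atggctggAggCaaAgctggaaaggacAGT

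*H3F3A* and *H3F3B* encode the identical H3.3 protein, so their transcripts differ in codons and untranslated regions alone. Of 136 codons they differed at 79 codons and 88 bases, 77 of them in the last position. GC3 was 44.9% in *H3F3A* and 72.1% in *H3F3B*, the widest contrast of the 4 pairs. Capitals again mark the differing bases in the first 10 codons.
H3F3A: atggcTcgTacAaagcagactgcCcgCaaA
H3F3B: atggcCcgAacCaagcagactgcTcgTaaG

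*H3F3B* (chromosome 17, 75776434 to 75785893, GRCh38) had a TPM of 601 and 597 in siControl and 650 and 652 in siCNOT4. The replicates were close in each group and the groups did not overlap, yet the log2 fold change of 0.12 (SE 0.12) was not called (limma adjusted p = 0.451). *H3F3A* (chromosome 1, 226061851 to 226072001, GRCh38) had 37.6 and 44.6 TPM in siControl and 34.6 and 29.9 in siCNOT4. Both siCNOT4 values were lower, and the log2 fold change was -0.34 (SE 0.22, limma adjusted p = 0.258). With length and GC trends removed it was -0.79 and was called (limma adjusted p = 0.0241).

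The values of *H3F3A* need care. In each library the TPM of *H3F3A* was 0.981 times that of *H3F3AP4*, a pseudogene symbol, with a relative range of 2.6e-10 over the 4 libraries, so both features hold the same reads divided by different lengths. *H3F3A* also shares 28.8% of the 50-base stretches of its main transcript with transcripts of 12 other genes, mainly pseudogenes, against 8.28% for *H3F3B*. How reads with several positions were counted is not given in the sources used here. *H3F3B* took 94.1% and 93.1% of the H3.3 TPM in siControl and 94.9% and 95.6% in siCNOT4, a difference of 1.70 percentage points (exact permutation p = 0.333). The level of *H3F3A* against *H3F3B* is uncertain for these reasons.

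Neither macroH2A gene was called on the deposited scale. *H2AFY* (chromosome 5, 135333900 to 135399914, GRCh38), encoding macroH2A1, had a TPM of 363 and 338 in siControl and 363 and 393 in siCNOT4. Those groups touched without overlapping (log2 fold change 0.11, SE 0.13, limma adjusted p = 0.539). *H2AFY2* (chromosome 10, 70052796 to 70112280, GRCh38), encoding macroH2A2, had 98.9 and 97.2 TPM against 89.9 and 93.8. Its siCNOT4 values were both lower, and the change on the log2 scale was -0.09 (SE 0.16, limma adjusted p = 0.661). With length and GC trends removed *H2AFY2* was called, at -0.39 (limma adjusted p = 0.0418). *H2AFY2* took 21.4% and 22.3% of the macroH2A TPM in siControl and 19.8% and 19.3% in siCNOT4, a difference of -2.31 percentage points with SDs of 0.648 and 0.379 (exact permutation p = 0.333).

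*H2AFJ* (chromosome 12, 14774383 to 14778002, GRCh38), encoding H2A.J, was the least abundant variant. It had 5.53 and 8.99 TPM in siControl, against 7.58 and 7.63 in siCNOT4, so the siControl replicates enclosed the siCNOT4 replicates. These values rest on about 46, 85, 60 and 60 reads, with exact Poisson intervals (95%, counting error only) of 4.05 to 7.38 and 7.18 to 11.1 TPM in siControl. The log2 fold change was 0.09 (SE 0.31, limma adjusted p = 0.833) and was not called. Without siControl replicate 2 it was 0.40 and called (limma adjusted p = 0.0375), and without siControl replicate 1 it was -0.22 (limma adjusted p = 0.133).

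**Figure D4:**
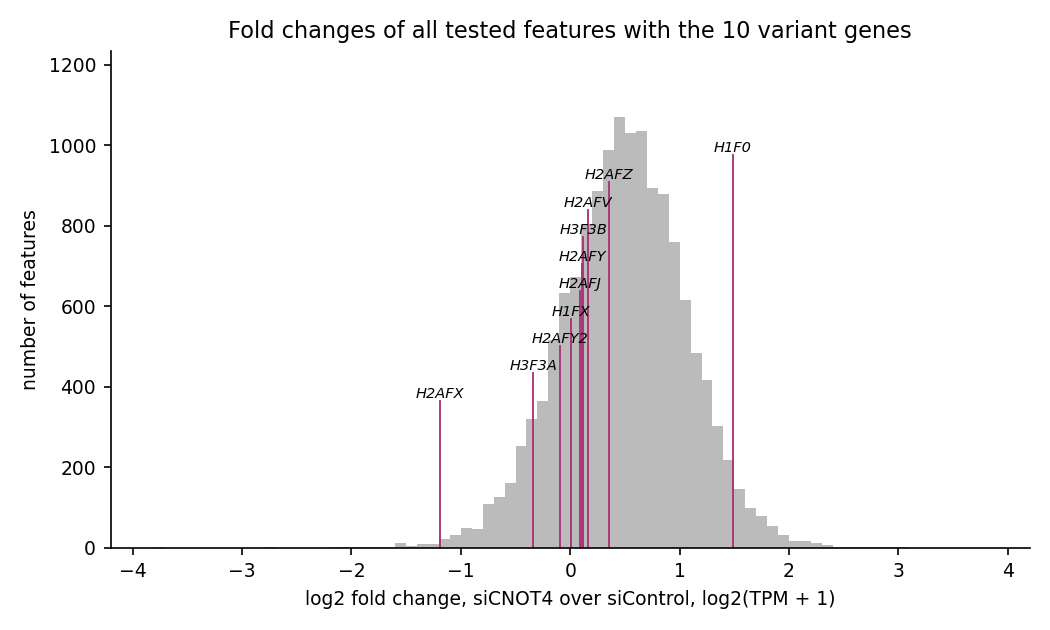
Histogram of the log2 fold changes of all 14208 tested features (bars of width 0.1) with the 10 variant genes as vertical lines, whose heights only separate the names. *H2AFX* lies in the lower tail, *H1F0* in the upper part, and the other 8 genes between -0.34 and 0.35.

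By overlap of the groups, 4 of the 10 genes were higher in both siCNOT4 libraries (*H2AFZ*, *H2AFY*, *H3F3B* and *H1F0*, the first 3 of which had negative log2 fold changes after TMM scaling), 3 were lower (*H2AFX*, *H2AFY2* and *H3F3A*) and 3 overlapped. For all features the shares were 66.4% higher and 10.6% lower. In siControl the order of mean levels was *H2AFZ*, *H3F3B*, *H2AFY*, *H2AFX*, *H1FX*, *H2AFY2*, *H2AFV*, *H1F0*, *H3F3A* and *H2AFJ*. There the ranges of *H1FX* and *H2AFY2*, and of *H2AFY2* and *H2AFV*, overlapped. In siCNOT4 only *H1FX* and *H2AFV* overlapped among neighbours.

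Profiles over the 4 libraries were compared by the distance between log2(TPM + 1) values, each gene centred on its own mean. The closest pair was *H2AFY* and *H3F3B* (distance 0.0996), followed by *H2AFV* and *H1FX* (0.174). *H2AFX* and *H1F0* were the farthest apart of all pairs (2.69), and their nearest members were *H3F3A* (0.886) and *H2AFZ* (1.14). None of the 10 genes had its own paralogue nearest except *H2AFY2*, whose nearest was *H2AFY* (0.212).

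GC3 and fold change are given side by side for all 10 genes, as a description with no test. The coding sequence of *H2AFX* had a GC3 of 92.3% and that of *H1FX* 92.0%, and their log2 fold changes were -1.19 and 0.01. *H2AFJ*, at 84.5%, and *H1F0*, at 79.9%, had log2 fold changes of 0.09 and 1.48. *H2AFY2*, at 66.9%, and *H2AFY*, at 63.4%, had -0.09 and 0.11, and *H3F3B*, at 72.1%, had 0.12. The lowest GC3 values were those of *H2AFV* (50.8%), *H2AFZ* (48.4%) and *H3F3A* (44.9%), with log2 fold changes of 0.16, 0.35 and -0.34.

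The machinery that places, removes and reads the variants was counted next, from lists chosen with earlier results of these data known. For all features, 11.3% were called higher and 1.3% lower. Of 8 genes of H3.3 deposition, 1 was called, *ASF1A*, a chaperone that hands H3-H4 to its depositors, at 31.7 and 21.4 TPM in siControl and 59.4 and 57.8 in siCNOT4 (log2 fold change 1.14, SE 0.25, limma adjusted p = 0.0433). The median of that list was 0.90 beside 0.50 for all features. Of 20 genes of H2A.Z exchange and removal, 2 were called, both higher: *BRD8* (1.07) and *MORF4L1* (0.86), subunits of the TIP60 acetyltransferase complex. The list's median was 0.58. Of 13 genes that modify or read H2A.X, 2 were called, both higher, and the median was 0.70. *NBN*, of the MRE11 complex at DNA breaks, had 15.6 and 8.86 TPM in siControl and 39.2 and 34.2 in siCNOT4 (1.56, SE 0.32, limma adjusted p = 0.0396). *BRCA1*, a repair gene, had 24.8 ± 11.1 TPM against 60.2 ± 0.392 (SD, n = 2 each; 1.32, SE 0.32, limma adjusted p = 0.0492). The siControl replicates differed widely in both genes, replicate 2 being the lower.

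Of 12 general histone chaperones, 1 was called, *RBBP7*, a histone-binding subunit of several chromatin complexes, at 794 and 798 TPM in siControl and 1440 and 1461 in siCNOT4 (log2 fold change 0.86, SE 0.11, limma adjusted p = 0.0234). The list's median was 0.20, below that of all features. Of 13 S phase and proliferation genes, 0 were called by limma and 3 had an unadjusted p under 0.05, with a median of 0.29. Among the 66 tested genes of these 5 lists, calls were 6 higher and 0 lower on the deposited scale, beside 11.3% and 1.3% of all features. After TMM scaling 1 gene of the H2A.X list was called higher and 1 chaperone lower, beside 4.1% higher and 5.8% lower of all features. With length and GC trends removed, 6 were called higher and 9 lower, beside 11.8% and 13.4% of all features. The 9 lower were 4 of the H2A.Z list, 4 chaperones and 1 S phase gene. In the order above, the lists gave 8, 15, 11, 6 and 11 genes higher and 0, 2, 0, 2 and 0 lower without siControl replicate 1, and 5, 12, 10, 5 and 4 higher and 0, 2, 0, 2 and 1 lower without siControl replicate 2. In those fits 51 and 36 of the 66 tested list genes were called higher, beside 70.9% and 47.2% of all features. With siCNOT4 replicate 1 or 2 left out, the spread came from the siControl replicates alone. The calls in these lists, those of the named genes included, were then lost, and fewer of all features were called. With a pseudocount of 0.1, no filter, or a mean TPM of at least 5, 1 of the 66 was called each time, *RBBP7* in the chaperone list. Of all features, 3.4%, 4.3% and 0.96% were called higher in those settings.

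Among other variants, *CENPA*, the centromeric H3, was at 40.7 and 30.5 TPM in siControl and 33.2 and 32.4 in siCNOT4 (log2 fold change -0.10, limma adjusted p = 0.745). It was called lower after TMM scaling, after quantile normalization and without siControl replicate 2. *H3F3C*, a primate H3.3 copy, lay between 0.322 and 0.843 TPM in all libraries. *H2AFB1*, *H2AFB2*, *H2AFB3*, *H2BFM* and *H1FOO* had at most 0.129 TPM, and *H2BFWT* and *H1FNT* were listed at 0. The replication-dependent histones, the class that *H2AFX* shares its stem-loop with, had 29 of 61 genes tested. Of these, 17 were called higher, beside 11.3% of all features, and 0 lower, and their median was 1.32, while *H2AFX* fell. Because the libraries read tailed mRNA alone, the untailed mRNA usual for this class was not measured. A change in level and a change in tailing cannot be told apart here. Calls higher were 10 of 55 tested without the filter, beside 4.3% of all features. At a mean TPM of at least 5 they were 7 of 14 tested, beside 0.96% of all features. When siCNOT4 replicate 1 or 2 was left out, fewer were called higher, both in this class and over all features.

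**Figure D5:**
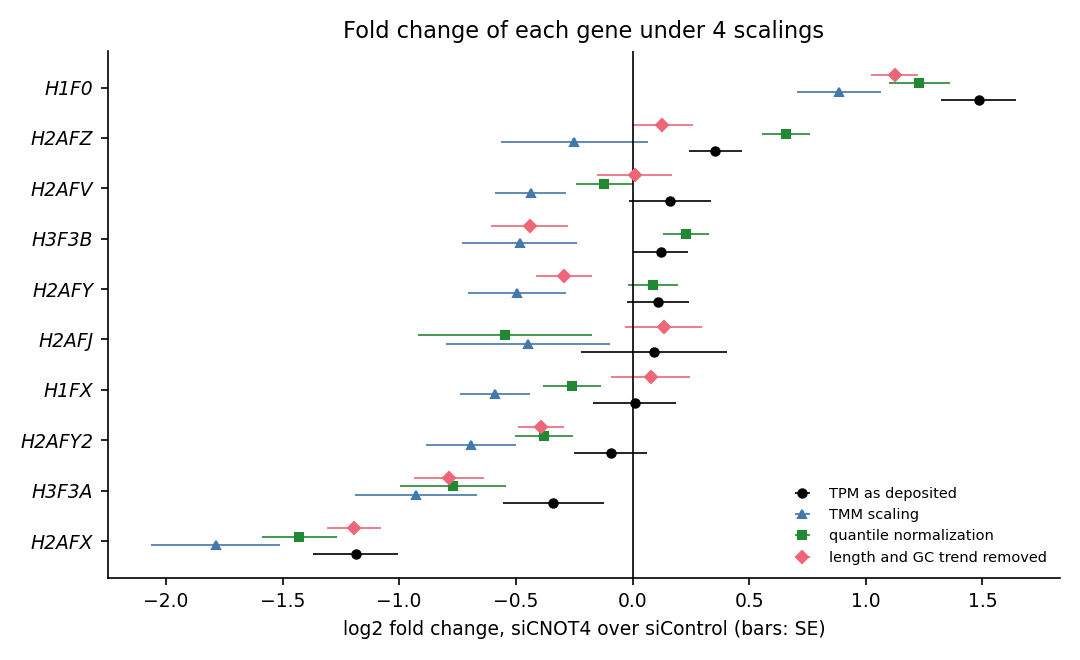
Log2 fold change (bars: SE) of each variant gene for TPM as deposited, TMM scaling, quantile normalization and after removal of length and GC trends. *H1F0* stays at 0.89 or more and *H2AFX* at -1.19 or less under all 4, while *H2AFZ*, *H2AFV*, *H2AFY*, *H2AFJ*, *H3F3B* and *H1FX* lie on either side of 0.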

How the data were processed

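Per the submitters' processing notes, FastQC 0.11.2, STAR 2.5.3a, featureCounts and the build hg19 were used. The annotation and the use of strand are not given in the sources used here. The deposited values are TPM per gene symbol and library, per the file headers, and have the same sum in every library. From them log2(TPM + 1) was computed, features were kept from a mean of 1 TPM upward, and groups taken from sample titles were compared with limma 3.58.1 (R 4.3.3; lmFit, eBayes with trend, no covariates). P values were adjusted by Benjamini-Hochberg over 14208 features, with a threshold of 0.05. The members, lists and named genes (all members, *CNOT4*, up to 4 called genes of each list, other variants) were chosen with earlier results of these data known.

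Alternatives were a pseudocount of 0.1, no filter, a mean TPM of at least 5, unweighted TMM, quantile normalization, removal of length and GC trends, a replicate block, and leaving out each library. Locations, transcripts and codons came from GENCODE 29 (GRCh38), with 18438 symbols matched directly and 1050 through older names. No coordinates were converted from hg19. The main transcript was the longest with the best APPRIS rank. Depth was estimated from 245 genes whose TPM steps gave whole-number ratios within 0.01, which assumes GENCODE lengths. In simulated data for this comparison (14208 genes), a log2 change of 1 was called in 0 of 200 genes, of 2 in 105 and of 3 in 151. Only those 200 genes were changed, and both groups had the same spread. In the real data 1792 features were called and the siControl replicates differed more, so these counts are not detection rates for the reported calls.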

Additional observations from a re-analysis of the deposited data

How the results depend on the processing

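The siControl replicates differed more than the siCNOT4 replicates (SD over features 0.48 and 0.20 on the log2 scale). The number of features called, 1792 as reported, was 558 with a pseudocount of 0.1, 908 without a filter, 147 at a mean TPM of at least 5, 3464 after removal of length and GC trends and 450 to 11311 when 1 library was left out. Of the called features, 89.7% were higher as deposited, 41.6% after TMM scaling, 46.4% after quantile normalization and 46.8% after trend removal. Variant genes called, 2 as reported, were 4 after trend removal (*H1F0*, *H2AFX*, *H2AFY2* and *H3F3A*; 25.1% of all features) and 1 to 5 with 1 library left out: 5 without siControl replicate 1 (with *H2AFZ*, *H2AFV* and *H3F3A*; 79.6% of all features called), 4 without siControl replicate 2 (with *H2AFZ* and *H2AFJ*; 57.5% of all features), and 1 without siCNOT4 replicate 1 (*H1F0*). In fits without a siControl library the spread is that of the siCNOT4 replicates alone, a lone library being assumed to vary like the other group. After quantile normalization 3 variant genes were called (*H1F0*, *H2AFX* and *H2AFZ*), beside 15.3% of all features. List genes called, 23 as reported with the replication-dependent histones, were 14, 11 and 8 under the pseudocount, no filter and the higher minimum, 15 after TMM scaling, and 11 to 80 with 1 library left out. The 5 lists had 66 genes tested in each setting. The replication-dependent histones had 29, but 55 without a filter and 14 at the higher minimum. Other variants had 1, but 7 without a filter. Of all features, 12.6% were called as reported, 3.9%, 4.6% and 1.3% under the pseudocount, no filter and the higher minimum, and 9.9% after TMM scaling. With 1 library left out, the background was the 450 to 11311 features above. The list counts alone therefore do not show how stable the calls are. The replicate numbers are not shown to pair the libraries: deviations of replicate 1 correlated at 0.171 across genes over 2 pairs. With the replicate block 3655 features (25.7% of all tested), 2 variant genes and 36 list genes were called.

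Signs changed as follows. After TMM scaling the log2 fold changes were -0.25 (*H2AFZ*), -0.44 (*H2AFV*), -0.49 (*H2AFY*), -0.45 (*H2AFJ*), -0.48 (*H3F3B*) and -0.59 (*H1FX*). After quantile normalization they were -0.12 (*H2AFV*), -0.55 (*H2AFJ*) and -0.26 (*H1FX*), and after trend removal -0.29 (*H2AFY*) and -0.44 (*H3F3B*). With 1 library left out, *H2AFJ* ranged from -0.22 (without siControl replicate 1) to 0.40, and *H1FX* from -0.15 (without siControl replicate 2) to 0.17, with -0.03 without siCNOT4 replicate 2. The cause was not tested. Paralogue share differences were 3.78 (H3.3), -2.75 (H2A.Z) and -5.33 (macroH2A) percentage points after quantile normalization, and -1.19 (macroH2A) and -18.0 (linker) after trend removal.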
